A study of Mus with 10 samples.

Results

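The enzymes of glycolysis and of the tricarboxylic acid (TCA) cycle were examined as a set of 45 genes in liver type 1 innate lymphoid cells (ILC1s). The genes were taken by name from the deposited count table, which holds 24564 genes, and all 45 were found in it. The set runs from the hexokinases to lactate dehydrogenase, includes short side branches of glucose metabolism and the pyruvate dehydrogenase complex with its kinases, and ends with the malate dehydrogenases.

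ILC1s are lymphocytes that reside in tissues such as the liver, and NKp46, the protein encoded by *Ncr1*, is one of their activating receptors. Bulk RNA-seq was available from 5 libraries of Ncr1+/+ ILC1s and 5 libraries of Ncr1gfp/gfp ILC1s, all sorted from the livers of C57BL/6 mice. The study gives the same age range for both genotypes and mice of either sex, without age or sex by library. In the Ncr1gfp/gfp animals, *gfp* was knocked into *Ncr1*, so that the cells lack the receptor and carry green fluorescent protein instead. Cells of both genotypes were gated as lineage-negative, NK1.1+, CD49a+ and CD49b-, but Ncr1+/+ cells were gated on NKp46 and Ncr1gfp/gfp cells on GFP, so that genotype and gate cannot be told apart. The study does not state that the genotypes were littermates, so that colony and genotype cannot be told apart either. The labels do not say whether a library came from a single mouse or from pooled mice, the study speaks of RNA pools without the number of mice in each, and p-values therefore measure only the spread between these libraries.

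Glycolysis splits glucose into pyruvate in the cytosol and yields ATP and NADH. Pyruvate is either reduced to lactate by lactate dehydrogenase or passed into mitochondria, where the pyruvate dehydrogenase complex turns it into acetyl-CoA for the TCA cycle. Lymphocytes are known to raise glycolysis when they are activated, whereas resting cells draw largely on mitochondrial oxidation. The comparison asked whether the transcripts of this machinery differed between ILC1s with and without NKp46.

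The libraries held between 15796253 and 22623133 counts in total, and these totals did not differ between genotypes beyond the spread of libraries (two-sided exact permutation test, p = 0.254, where the smallest p that 5 against 5 allow is 0.00794). Levels are given as CPM, which are counts relative to the library total after TMM scaling, and 3 counts corresponded to between 0.132 and 0.190 CPM. *Ncr1* itself stood at 259 ± 97.5 CPM (SD, n = 5) in Ncr1gfp/gfp libraries and at 2029 ± 99.97 CPM (SD, n = 5) in Ncr1+/+ libraries. The summed CPM of 8 ILC1 markers was 4329 to 4556 in Ncr1gfp/gfp and 5930 to 6334 in Ncr1+/+ libraries, but without *Ncr1* the other 7 summed to 3973 to 4271 and 3989 to 4251. This sum hides shifts in both directions. *Il7r* was called lower in Ncr1gfp/gfp libraries, at 84.6 ± 33.4 as compared to 166 ± 31.7 CPM. *Itga1* was higher without overlap, at 971 ± 35.1 and 779 ± 30.4 CPM, but its fold change of 1.25 missed the threshold for a call. The 8 NK cell markers summed to 3838 to 5268 as compared to 3190 to 3545, but without *Gzma* the other 7 summed to 423 to 463 and 433 to 464. The 9 T cell markers summed to 712 to 936 as compared to 524 to 660, with *Cd3e* and *Cd8a* called higher in Ncr1gfp/gfp libraries. Most of this sum was *Cd3g*, and without it the other 8 summed to 118 to 191 and 82.5 to 108. *Trac*, *Trbc1* and *Trbc2* were not among the listed genes. Markers of B cells (up to 5.99), of myeloid and Kupffer cells (up to 78.5) and of erythroid cells (up to 9.14, with 6 globin genes at 0 in every library) were low in both genotypes. Hepatocyte markers ranged from 123 to 216, endothelial markers from 113 to 151 and proliferation markers from 41.9 to 138, with overlap between the genotypes in each case. Single genes gave most of the hepatocyte and endothelial sums, namely *Trf* with 120 to 146 CPM and *Pecam1* with 111 to 149 CPM. *Alb* reached at most 38.0 CPM, in Ncr1gfp/gfp replicate 3, and *Cdh5*, *Kdr* and *Stab2* each stayed under 1.8 CPM. In bulk RNA, fewer cells of a type and less RNA per cell cannot be told apart, and the part of these lists in the enzyme levels was not tested.

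No enzyme of the set passed the test for a difference between genotypes. Of the 45 genes, 43 had enough counts to be tested, and 0 of these 43 were called at an adjusted p under 0.05 with a fold change above 1.5 or below 0.7 (quasi-likelihood test of edgeR, Benjamini-Hochberg adjustment over 11463 genes). In the same comparison 84 genes were called, 0.733% of those tested, so that a count of 0 among 43 lies near the background. DESeq2 and edgeR's likelihood ratio test each called 1 enzyme gene, *Hk3*, and limma-voom called 0. Over all 11463 tested genes these fits gave 312, 264 and 167 genes at an adjusted p under 0.05, as compared to 155 in the quasi-likelihood test. In the quasi-likelihood test at an adjusted p under 0.05 with any fold change, the set again held 0 genes, beside 1.35% of all tested genes. At an unadjusted p under 0.05 it held 2 genes, *Hk3* and *Pgm1*, beside 11.4% of all tested genes. In none of the 43 genes did the CPM of the genotypes lie apart without overlap, a pattern seen in 3.11% of all tested genes. Together the 45 genes took 0.292% to 0.304% of all counts in Ncr1gfp/gfp libraries and 0.298% to 0.306% in Ncr1+/+ libraries.

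Because a p that misses the threshold does not show that levels are alike, the 95% interval of each fold change was also placed against the fold thresholds. For 33 of the 43 genes the whole interval lay between a fold change of 0.7 and 1.5, a share of 76.7% as compared to 68.5% of all tested genes. The outermost limits among these 33 genes were 0.715 for *Pdk2* and 1.43 for *Suclg2*. How narrow an interval was followed the level of the gene. Among the 30 enzyme genes with a mean above 20 CPM, all 30 intervals lay inside the thresholds, with fold changes between 0.854 and 1.07 and a median log2 fold change of -0.03. Of the 6747 tested genes above 20 CPM, 96.4% had such an interval. Among the 13 enzyme genes at 20 CPM or less, 3 had such an interval, beside 28.6% of the 4716 tested genes at that level.

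**Figure D1:**
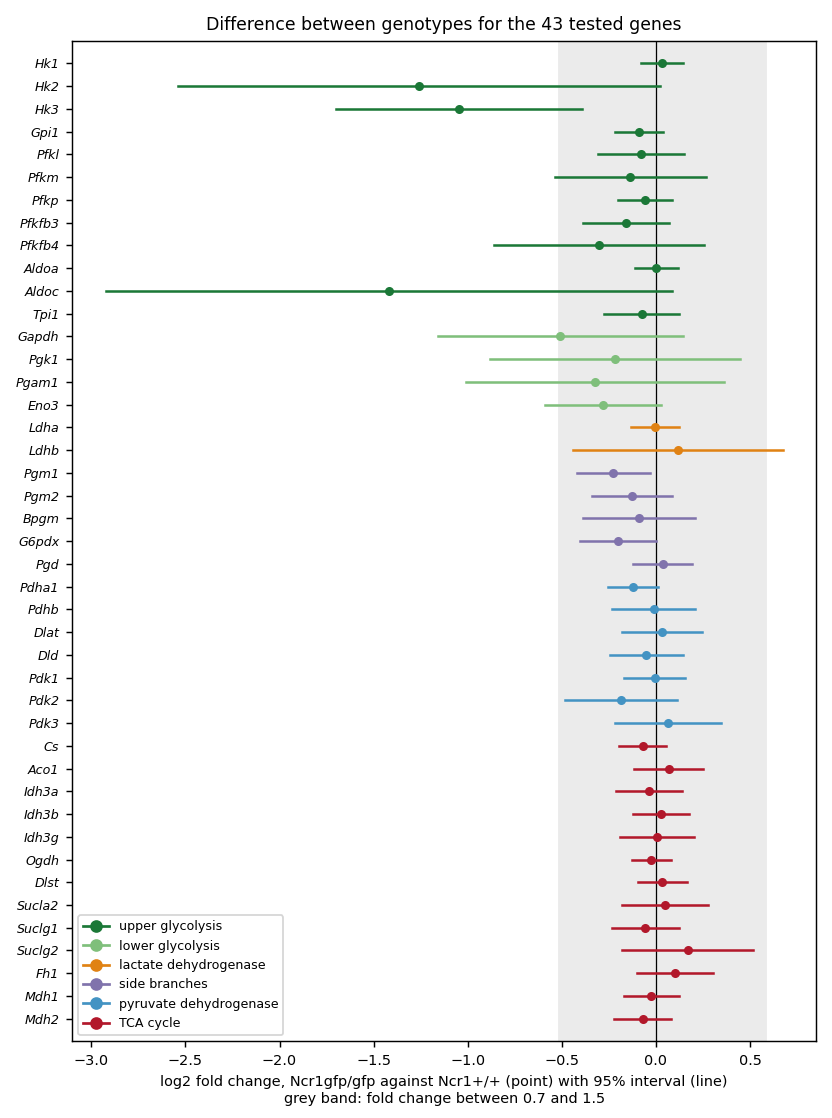
Log2 fold change of Ncr1gfp/gfp against Ncr1+/+ ILC1s (horizontal axis) for the 43 tested enzyme genes, with points for the fitted value and lines for the 95% interval, colored by pathway segment. The grey band marks fold changes between 0.7 and 1.5, which holds the whole interval of 33 genes, among them all 13 TCA cycle genes and none of the 4 tested lower glycolysis genes.

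The fitted fold changes leaned below 1, most of all in glycolysis. Of the 43 tested genes 30 had a negative log2 fold change, beside 49.3% of all tested genes, and the median was -0.06 as compared to 0.00 over all tested genes. This lean was uneven along the pathway. In glycolysis from hexokinase to enolase, 14 of 16 tested genes were negative with a median of -0.19. Among these 14 were *Gapdh*, *Pgk1* and *Pgam1*, whose counts are uncertain. Of the side branches 4 of 5 genes were negative (median -0.13), of pyruvate dehydrogenase 5 of 7 (median -0.01) and of lactate dehydrogenase 1 of 2. In the TCA cycle, 6 of 13 were negative with a median of 0.01. It was also uneven by level, since 11 of the 13 genes at 20 CPM or less were negative with a median of -0.28, beside 51.5% of all tested genes at that level. The 7 glycolytic genes above 20 CPM had 5 negative values and a median of -0.08. At that level 19 of the 30 enzyme genes and 47.7% of all tested genes were negative. The members were chosen with earlier results of these data known, and no test was made of the lean.

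Per library, the mean of log2(CPM + 0.5) over the 43 genes was 5.05 ± 0.04 in Ncr1gfp/gfp libraries (5.02 to 5.10) and 5.18 ± 0.05 in Ncr1+/+ libraries (5.14 to 5.27), without overlap. Restricted to the 30 genes above 20 CPM, it was 6.21 ± 0.04 (6.17 to 6.26) and 6.24 ± 0.04 (6.21 to 6.28), and the genotypes overlapped. Over the 13 genes at 20 CPM or less it was 2.39 ± 0.09 (2.30 to 2.53) and 2.74 ± 0.12 (2.67 to 2.94). *Aldoc*, *Hk2* and *Hk3* carried much of this last difference. Without them, the mean over the other 10 low genes was 2.88 ± 0.12 (2.73 to 3.05) and 3.06 ± 0.07 (2.99 to 3.16), and the genotypes overlapped. Without *Gapdh*, *Pgk1* and *Pgam1* as well, whose counts are uncertain, it was 3.32 ± 0.08 (3.25 to 3.41) and 3.43 ± 0.07 (3.34 to 3.52) over 7 genes, again with overlap.

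**Figure D2:**
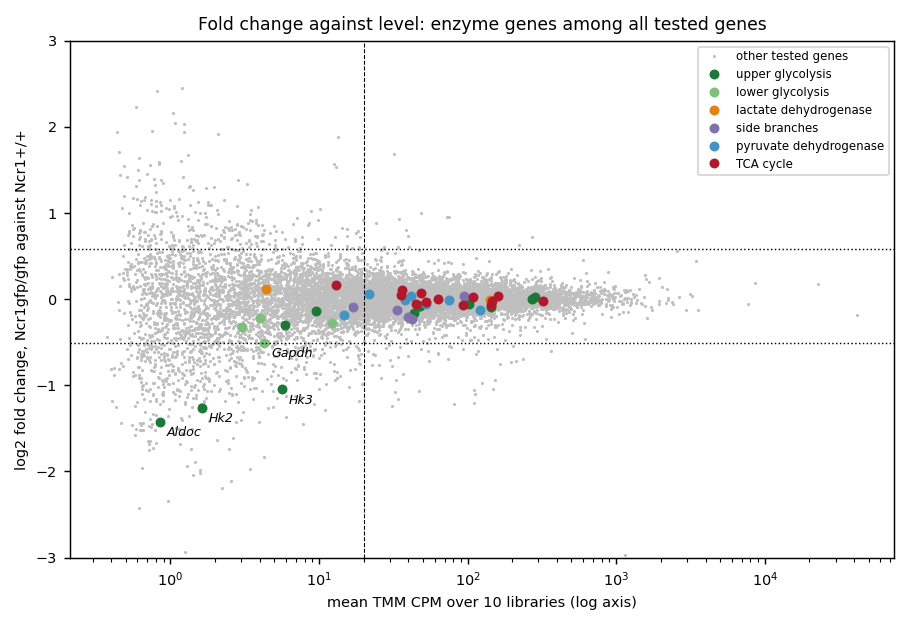
Log2 fold change of Ncr1gfp/gfp against Ncr1+/+ ILC1s (vertical axis) against the mean CPM over the 10 libraries (log axis) for all 11463 tested genes in grey and the enzyme genes in color. The dotted lines mark fold changes of 0.7 and 1.5 and the dashed line 20 CPM; 2 other genes lie beyond the plotted range of -3 to 3, and the 3 enzyme genes far below the lower line, *Aldoc*, *Hk2* and *Hk3*, all have means under 20 CPM.

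The levels of different genes were compared as CPM per kilobase of exon, leaving aside *Gapdh*, *Pgk1*, *Pgam1* and *Eno1*, whose counts are uncertain for reasons given with the lower steps of glycolysis. Among the other genes, *Aldoa*, the aldolase that splits fructose 1,6-bisphosphate, stood highest at 149. It was followed by *Mdh1* at 74.4, *Ldha* at 72.8, *Mdh2* at 72.3 and *Idh3b* at 71.3 CPM per kilobase, and these 4 neighbours differed by less than their spread between libraries. *Hk1* (62.7), *Dlst* (58.2), *Gpi1* (50.2) and *Cs* (49.1) came next. At the other end stood *Hk3* (1.72), *Aldoc* (0.296), *Hk2* (0.295) and *Eno2* (0.00335).

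**Figure D3:**
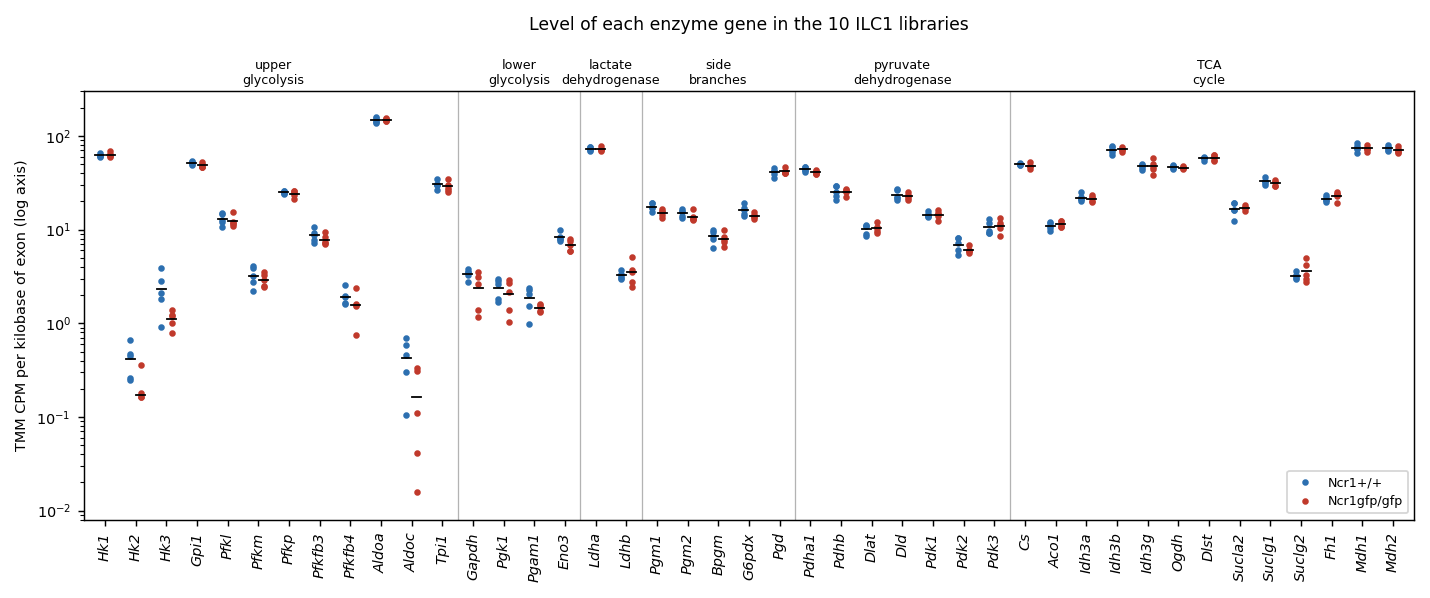
CPM per kilobase of exon (log axis) of the 43 tested enzyme genes in the 5 Ncr1+/+ (blue) and 5 Ncr1gfp/gfp (red) libraries, ordered along the pathway, with black bars for the group means. Points of both genotypes overlap for every gene, levels run from about 149 for *Aldoa* to 0.295 for *Hk2*, and 1 Ncr1gfp/gfp value of *Hk2* at 0 is not drawn.

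The first step of glycolysis, the phosphorylation of glucose, was served almost wholly by *Hk1* (chromosome 10, 61731603 to 61842656, in coordinates whose genome build the table does not name). *Hk1*, the hexokinase found in most tissues, had 269, 311, 286, 277 and 285 CPM in Ncr1gfp/gfp replicates 1 to 5 and 268, 281, 275, 295 and 279 CPM in Ncr1+/+ replicates 1 to 5. The 2 sets of values overlapped over nearly their whole range. The fitted log2 fold change was 0.03 (standard error 0.05), and the 95% interval of the fold change ran from 0.945 to 1.10.

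*Hk3*, a hexokinase best known from myeloid cells, had the smallest p of the set. The table places it on chromosome 13 (55107346 to 55122746, minus strand). Its CPM was 4.57, 3.29, 4.02, 2.56 and 3.87 in Ncr1gfp/gfp replicates 1 to 5 and 12.8, 2.96, 9.25, 6.96 and 5.93 in Ncr1+/+ replicates 1 to 5. Ncr1+/+ replicate 2 lay among the Ncr1gfp/gfp libraries, and the other 4 Ncr1+/+ libraries lay above all of them. The log2 fold change was -1.05 (standard error 0.31), a fold change of 0.484 with a 95% interval of 0.308 to 0.761, at an unadjusted p of 0.00314 and an adjusted p of 0.116 in edgeR. This call depended on the fit. *Hk3* passed the threshold with DESeq2 (adjusted p = 0.0415), with edgeR's likelihood ratio test (adjusted p = 0.0492), without a filter on low counts (adjusted p = 0.0442 in edgeR) and when Ncr1+/+ replicate 2 was left out (adjusted p = 0.0232 in edgeR). Across 19 alternative fits its log2 fold change lay between -1.25 and -0.78, and its adjusted p in edgeR reached 0.354 when the library with the highest hepatocyte markers of each genotype was left out.

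Markers of other cells were set beside *Hk3*. In Ncr1+/+ replicate 1, where *Hk3* was highest at 12.8 CPM, the 10 myeloid and Kupffer markers summed to 16.4 CPM, the lowest sum among Ncr1+/+ libraries. In Ncr1+/+ replicate 5, where these markers were highest at 78.5 CPM, *Hk3* was at 5.93 CPM. The 5 proliferation markers were highest in the same libraries as *Hk3* within each genotype, at 138 CPM in Ncr1+/+ replicate 1 and 109 CPM in Ncr1gfp/gfp replicate 1. Among the other libraries the orders differed. Ncr1+/+ replicate 5 had more of these markers than replicate 3 (80.8 and 61.0 CPM) but less *Hk3* (5.93 and 9.25 CPM). Ncr1+/+ replicate 1 also had the highest hepatocyte markers of its genotype, at 182 CPM. The part of any of these lists in the level of *Hk3* was not tested.

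*Hk2*, the hexokinase that many activated and tumor cells induce, had low counts (chromosome 6, 82675021 to 82724448, minus strand). Its CPM was 0, 1.01, 0.900, 0.892 and 1.96 in Ncr1gfp/gfp replicates and 2.47, 3.62, 1.45, 2.57 and 1.36 in Ncr1+/+ replicates. Ncr1gfp/gfp replicate 5 lay above the 2 lowest Ncr1+/+ libraries. The log2 fold change was -1.26 (standard error 0.62), with an adjusted p of 0.447 in edgeR and an interval of the fold change from 0.172 to 1.01.

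As shares of the summed hexokinase counts per kilobase, *Hk1* made up 98.0% ± 0.380 (SD, n = 5) in Ncr1gfp/gfp libraries and 95.8% ± 1.69 (SD, n = 5) in Ncr1+/+ libraries. The ranges were 97.62% to 98.5% and 93.2% to 97.56%, which nearly touch, and this was the only one of the isozyme shares without overlap. How often such shares separate in other groups of genes was not computed. The difference of 2.22 points was matched by *Hk3*, at 1.74% ± 0.408 and 3.59% ± 1.78, and by *Hk2*, at 0.264% ± 0.195 and 0.642% ± 0.261. No member of the trio passed the test on its own level.

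The next steps, glucose phosphate isomerase and phosphofructokinase, had main forms whose intervals lay inside the fold thresholds. *Gpi1*, which isomerizes glucose 6-phosphate, had 140.3 ± 8.18 CPM in Ncr1gfp/gfp and 149.6 ± 6.19 CPM in Ncr1+/+ ILC1s (interval of the fold change 0.859 to 1.02). Phosphofructokinase, the main control point of glycolysis, was carried mostly by the platelet form *Pfkp*, with 100.7 ± 8.40 and 104.7 ± 3.74 CPM and an interval of 0.870 to 1.06. By share of counts per kilobase, *Pfkp* made up 61.2% ± 2.18 and 60.6% ± 2.70, the liver form *Pfkl* 31.3% ± 3.20 and 31.5% ± 3.34, and the muscle form *Pfkm* 7.49% ± 1.35 and 7.83% ± 2.05 in Ncr1gfp/gfp and Ncr1+/+ ILC1s. All 3 shares overlapped between genotypes.

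*Pfkfb3* and *Pfkfb4* encode the enzymes that make and degrade fructose 2,6-bisphosphate, an activator of phosphofructokinase. *Pfkfb3* was the more abundant, with 36.9 to 49.5 CPM in Ncr1gfp/gfp and 38.4 to 56.6 CPM in Ncr1+/+ libraries, and a fold change of 0.895 (interval 0.763 to 1.05). *Pfkfb4* had 5.28 ± 1.97 and 6.49 ± 1.28 CPM, and its interval of 0.550 to 1.19 reached past the lower fold threshold. Neither passed the test.

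Aldolase was represented by *Aldoa* alone for practical purposes (chromosome 7, 133938748 to 133943961, minus strand). It had 261 to 280.5 CPM in Ncr1gfp/gfp and 252 to 292 CPM in Ncr1+/+ libraries, means of 271.5 ± 9.45 and 271.0 ± 17.05, and a log2 fold change of 0.00 (standard error 0.06). *Aldoa* made up 99.9% of aldolase counts per kilobase in Ncr1gfp/gfp and 99.7% in Ncr1+/+ ILC1s. *Aldoc*, the brain form, had the lowest fitted fold change of the set. It stood at 0.889, 0.0457, 0.318, 0.952 and 0.119 CPM in Ncr1gfp/gfp and 2.02, 1.68, 0.300, 0.858 and 1.31 CPM in Ncr1+/+ replicates. Ncr1gfp/gfp replicates 2 and 5 had 1 and 2 counts, and the genotypes overlapped. Its log2 fold change of -1.42 had a standard error of 0.72 and an adjusted p of 0.471 in edgeR. *Tpi1*, which interconverts the 2 triose phosphates, had 46.4 ± 5.66 and 49.003 ± 4.77 CPM with an interval of 0.825 to 1.09.

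**Figure D4:**
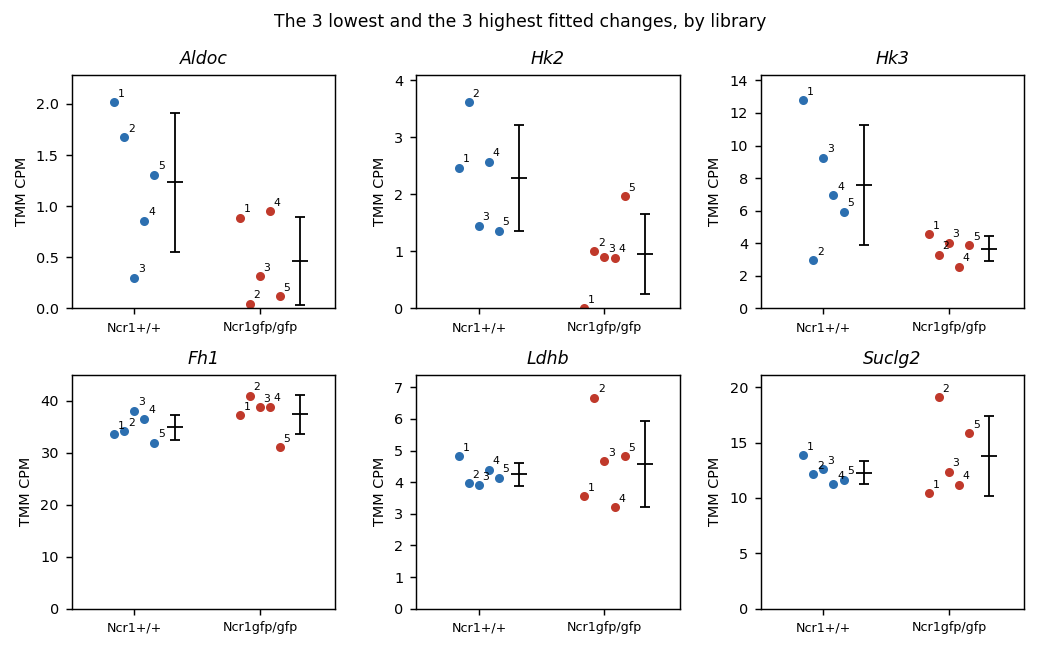
CPM in each library for the 3 enzyme genes with the lowest fitted log2 fold changes (*Aldoc*, *Hk2*, *Hk3*, upper row) and the 3 with the highest (*Fh1*, *Ldhb*, *Suclg2*, lower row), with replicate numbers beside the points and mean ± SD (n = 5) at the right of each group. The genotypes overlap in all 6 panels, and 4 of the 5 Ncr1+/+ values of *Hk3* lie above the highest Ncr1gfp/gfp value of 4.57 CPM.

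The lower steps of glycolysis, which recover ATP from the triose phosphates, were measured with little precision. *Gapdh*, whose transcript is usually among the most abundant of a cell, had between 29 and 121 counts per library. *Pgk1* had 32 to 117 and *Pgam1* 33 to 87 counts, whereas *Aldoa* had 4387 to 6008. Per kilobase of exon these 3 genes stood at 2.87, 2.21 and 1.66 CPM. *Eno1*, the enolase of most tissues (chromosome 4, 149611306 to 149622982), is listed at 0 in all 10 libraries, and *Eno2*, the neuronal form, had 2 counts in Ncr1+/+ replicate 3 and 0 elsewhere. These 2 genes failed the filter and were not tested.

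Genes that share reads with near-identical copies are uncertain in such a table, because HTSeq at its default settings does not count a read with more than 1 mapped position. RefSeq (GRCm38.p6) names 3 pseudogenes for *Gapdh*, 3 for *Pgk1* and 2 for *Pgam1*, and it lists a second protein-coding gene, not analysed here, with *Eno1* among its other names. It also names 3 pseudogenes for *Aldoa* and 3 for *Ldha*, both of which had high counts. Only pseudogenes that carry the symbol of the gene in a name or synonym were counted. These numbers are therefore not the numbers of near-identical copies. The cause of the low counts was not tested. The levels of *Gapdh*, *Pgk1*, *Pgam1* and *Eno1* are therefore given as listed and not read as their abundance in ILC1s.

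Within these limits, *Gapdh* had 4.70, 3.89, 5.29, 2.08 and 1.73 CPM in Ncr1gfp/gfp and 4.09, 5.34, 5.65, 4.90 and 5.22 CPM in Ncr1+/+ replicates. Ncr1gfp/gfp replicates 4 and 5 were low, replicate 2 lay just under the Ncr1+/+ range and replicates 1 and 3 within it. The log2 fold change was -0.51 with a standard error of 0.31, and the adjusted p in edgeR was 0.587. *Pgk1* (-0.22, standard error 0.32) and *Pgam1* (-0.32, standard error 0.33) also had negative log2 fold changes within about 1 standard error of 0.

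*Eno3*, the muscle form, had the most counts of the enolase genes in the set (chromosome 11, 70470678 to 70476015, plus strand). Because the count of *Eno1* is uncertain, *Eno3* is not read as the main enolase of ILC1s. *Eno3* had 9.59, 9.60, 12.0, 11.1 and 12.9 CPM in Ncr1gfp/gfp and 15.9, 12.9, 12.0, 12.8 and 13.4 CPM in Ncr1+/+ replicates. The upper Ncr1gfp/gfp libraries reached the lower Ncr1+/+ libraries. Its log2 fold change was -0.28 with a standard error of 0.15 and an adjusted p of 0.499 in edgeR, and with an interval of the fold change from 0.666 to 1.02.

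Lactate dehydrogenase, which reduces pyruvate to lactate and returns NAD+ to glycolysis, did not separate the genotypes. *Ldha* (chromosome 7, 54101174 to 54110997, plus strand) had 139, 153, 136, 132.5 and 142 CPM in Ncr1gfp/gfp and 139, 135, 138, 147 and 146 CPM in Ncr1+/+ replicates. Means were 140.3 ± 7.77 and 140.8 ± 5.19, the log2 fold change was 0.00 to 2 decimals, and the interval of the fold change was 0.913 to 1.09. *Ldhb*, the form favored in oxidative tissues such as heart, was low at 4.58 ± 1.36 and 4.24 ± 0.374 CPM, with a log2 fold change of 0.12 (standard error 0.27). The 2 forms kept their proportion, with *Ldha* at 95.4% ± 1.06 of the counts per kilobase in Ncr1gfp/gfp and 95.7% ± 0.361 in Ncr1+/+ ILC1s.

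**Figure D5:**
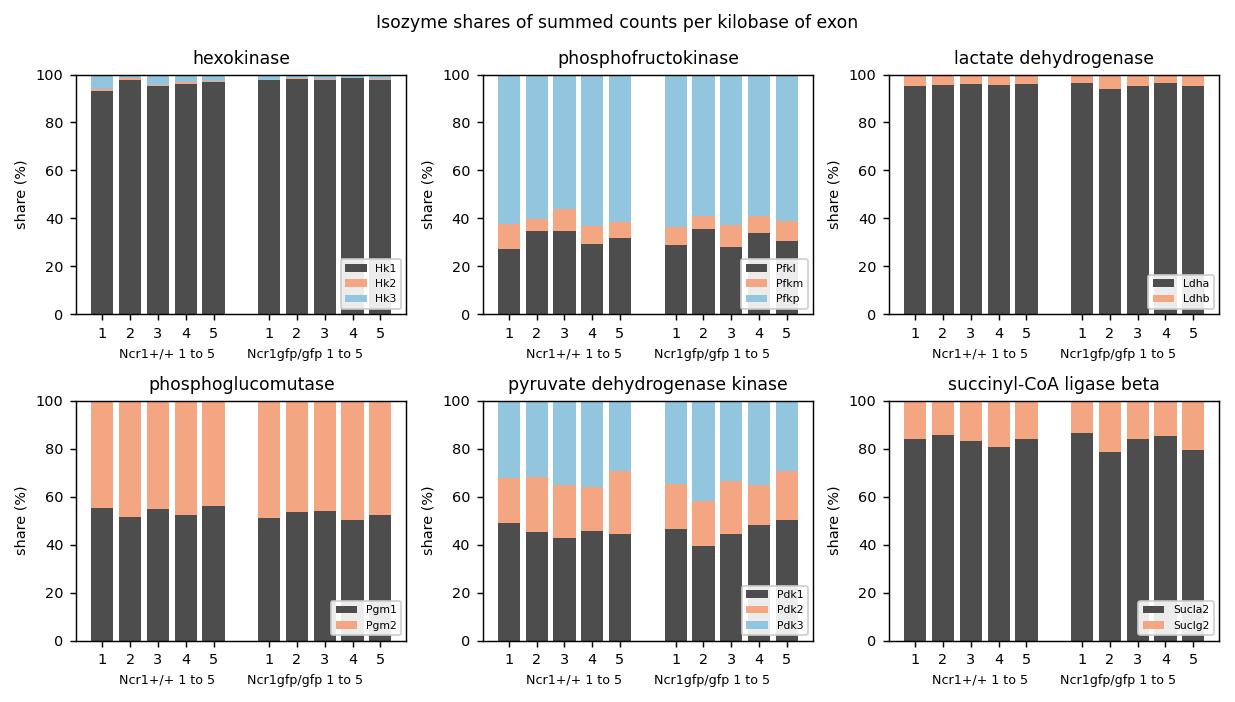
Share of each isozyme in the summed counts per kilobase of exon of its step (vertical axis, percent), in Ncr1+/+ replicates 1 to 5 and Ncr1gfp/gfp replicates 1 to 5, for 6 steps. The same isozyme leads in every library of both genotypes for hexokinase (*Hk1*), phosphofructokinase (*Pfkp*), lactate dehydrogenase (*Ldha*) and succinyl-CoA ligase (*Sucla2*). *Pgm1* of the table also leads its pair in every library, but by little, with shares from 50.2% to 56.1%. This gene lies on chromosome 5 and is named *Pgm2* in RefSeq.

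The side branches comprised the genes named for phosphoglucomutase, bisphosphoglycerate mutase, and the oxidative enzymes of the pentose phosphate pathway. Phosphoglucomutase links glucose 6-phosphate to glycogen. All 5 genes had intervals inside the fold thresholds. The gene that the table lists as *Pgm1* lies on chromosome 5 and the one listed as *Pgm2* on chromosome 4, and RefSeq gives these the opposite names. *Pgm1* of the table had 34.5, 40.8, 39.3, 42.6 and 36.6 CPM in Ncr1gfp/gfp and 49.3, 44.7, 49.9, 39.3 and 43.8 CPM in Ncr1+/+ replicates. Ncr1+/+ replicate 4 lay among the Ncr1gfp/gfp libraries and the other 4 above them. The log2 fold change was -0.23 (standard error 0.09), with a fold change of 0.854 (interval 0.746 to 0.978), an unadjusted p of 0.0246 and an adjusted p of 0.328 in edgeR.

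*Pgm2* of the table had 32.2 ± 3.58 and 35.1 ± 3.12 CPM, and *Pgm1* made up 50.2% to 54.1% and 51.4% to 56.1% of the counts per kilobase of the pair. *G6pdx*, which opens the pentose phosphate pathway and supplies NADPH, had 36.8 ± 2.46 CPM in Ncr1gfp/gfp and 42.4 ± 5.28 CPM in Ncr1+/+ ILC1s. Its log2 fold change was -0.20 (standard error 0.10, interval of the fold change 0.755 to 1.00). The next NADPH-yielding enzyme, *Pgd*, had a log2 fold change of 0.03 at 95.3 ± 6.92 and 93.1 ± 8.00 CPM. *Bpgm*, which makes 2,3-bisphosphoglycerate, had 16.5 ± 2.51 and 17.5 ± 2.89 CPM.

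The entry of pyruvate into the TCA cycle was measured more tightly, with all 7 intervals inside the fold thresholds. The pyruvate dehydrogenase complex is built from E1 (*Pdha1*, *Pdhb*), E2 (*Dlat*) and E3 (*Dld*) subunits. *Pdha1*, which carries the sites that the kinases phosphorylate, had 116.5 ± 5.55 CPM in Ncr1gfp/gfp and 126.7 ± 7.12 CPM in Ncr1+/+ ILC1s, with a fold change of 0.9197 (interval 0.839 to 1.01). *Pdhb* (0.991), *Dlat* (1.02) and *Dld* (0.965) had fold changes closer to 1.

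The kinases switch the complex off. *Pdk1*, which hypoxia is known to induce, had 64.6 to 83.2 CPM in Ncr1gfp/gfp and 71.6 to 82.0 CPM in Ncr1+/+ libraries, with a log2 fold change of -0.01 (standard error 0.08). It had the highest mean share of kinase counts per kilobase, at 45.8% ± 4.11 and 45.5% ± 2.34, but in Ncr1gfp/gfp replicate 2 it stood at 39.4% and *Pdk3* at 41.8%. *Pdk3* followed at 34.9% ± 4.54 and 32.9% ± 2.67, and *Pdk2* at 19.4% ± 1.96 and 21.6% ± 3.24. The shares of all 3 kinases overlapped between genotypes.

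In the TCA cycle no gene came near the threshold. All 13 genes had intervals inside the fold thresholds, the smallest unadjusted p was 0.246, for *Cs*, and the fold changes lay between 0.952 and 1.12. *Cs*, the citrate synthase that joins acetyl-CoA to oxaloacetate, had 139.8, 139.4, 141, 130.1 and 153 CPM in Ncr1gfp/gfp and 148, 144.5, 145, 152 and 149 CPM in Ncr1+/+ replicates. Ncr1gfp/gfp replicate 5 was the highest of the 10 libraries and the other 4 Ncr1gfp/gfp libraries were the lowest.

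*Aco1*, the cytosolic aconitase that also acts as an iron-regulatory protein, had 49.5 ± 3.66 and 47.2 ± 4.40 CPM. The 3 subunits of the NAD-dependent isocitrate dehydrogenase, *Idh3a*, *Idh3b* and *Idh3g*, had fold changes of 0.975, 1.02 and 1.00. *Idh3b* was the most abundant of them per kilobase. Of the 2-oxoglutarate dehydrogenase complex, *Ogdh* had 322 ± 9.47 CPM in Ncr1gfp/gfp and 327 ± 12.9 CPM in Ncr1+/+ ILC1s, with an interval of the fold change from 0.914 to 1.06. Its partner *Dlst* had 163 ± 11.4 and 159 ± 5.37 CPM, with an interval of 0.937 to 1.12.

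Succinyl-CoA ligase pairs an alpha chain (*Suclg1*) with an ATP-forming (*Sucla2*) or a GTP-forming (*Suclg2*) beta chain. *Suclg2* (chromosome 6, 95423003 to 95668840, minus strand) had the highest fitted fold change of the set, with 10.4, 19.1, 12.4, 11.2 and 15.8 CPM in Ncr1gfp/gfp and 13.8, 12.1, 12.6, 11.3 and 11.6 CPM in Ncr1+/+ replicates. Ncr1gfp/gfp replicates 2 and 5 were high and the other 3 lay within or below the Ncr1+/+ range. The log2 fold change was 0.17 with a standard error of 0.17 and an adjusted p of 0.796 in edgeR. *Sucla2* was the main beta chain in every library, at 82.8% ± 3.64 of the pair in Ncr1gfp/gfp and 83.6% ± 1.82 in Ncr1+/+ ILC1s.

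*Fh1*, the fumarase (chromosome 1, 177531509 to 177555766, minus strand), had 37.1, 41.0, 38.8, 38.8 and 31.1 CPM in Ncr1gfp/gfp and 33.6, 34.1, 38.0, 36.5 and 31.9 CPM in Ncr1+/+ replicates, which overlapped. Its log2 fold change was 0.10 (standard error 0.10). The cytosolic *Mdh1* and the mitochondrial *Mdh2*, both of which take part in the malate-aspartate shuttle, had fold changes of 0.982 and 0.952, with intervals of 0.888 to 1.09 and 0.858 to 1.06.

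A further 93 genes of the same pathways were examined, and 74 were tested. Of these, 0 were called in either direction and 0 had an adjusted p under 0.05, beside 0.733% and 1.35% of all tested genes. An unadjusted p under 0.05 was found for 7 of the 74, beside 11.4% of all tested genes. A negative log2 fold change was found for 40 (median -0.04) and an interval inside the fold thresholds for 57, beside 49.3% and 68.5% of all tested genes. By group, negative values were seen in 10 of 16 tested genes of glycolysis and glucose uptake, 5 of 10 of the pentose phosphate pathway, 14 of 24 of pyruvate entry and the TCA cycle, and 11 of 24 regulators. None of the 4 groups held a called gene.

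*Pkm*, the pyruvate kinase of lymphocytes, had 181 ± 7.61 CPM in Ncr1gfp/gfp and 185 ± 13.7 CPM in Ncr1+/+ ILC1s, with a log2 fold change of -0.03 (standard error 0.06). The glucose transporters *Slc2a1* (42.0 ± 3.59 and 48.9 ± 5.92 CPM) and *Slc2a3* (209 ± 14.7 and 222 ± 17.6 CPM) had log2 fold changes of -0.22 and -0.09, and edgeR gave adjusted p-values of 0.370 and 0.690. *Hif1a*, the oxygen-regulated activator of glycolytic genes, had a log2 fold change of 0.07 (standard error 0.07).

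*Myc*, another activator of glycolytic genes, had 79.9, 64.7, 69.9, 75.5 and 65.6 CPM in Ncr1gfp/gfp and 105, 78.4, 81.2, 84.7 and 90.1 CPM in Ncr1+/+ replicates. Only Ncr1gfp/gfp replicate 1 reached the lowest Ncr1+/+ library. The log2 fold change was -0.30 with a standard error of 0.09 and an adjusted p of 0.0902 in edgeR, and the fold change was 0.810 (interval 0.715 to 0.917). *Txnip*, which restrains glucose uptake, was named after its values were seen. It had 773, 784, 733, 774 and 774 CPM in Ncr1gfp/gfp and 652, 715, 685, 701 and 621 CPM in Ncr1+/+ replicates, without overlap. Its log2 fold change was 0.19 with a standard error of 0.05 and an adjusted p of 0.0540 in edgeR. With DESeq2 both *Myc* and *Txnip* had an adjusted p under 0.05. So did *Myc* with the likelihood ratio test and without a filter. *Txnip* also did with RLE or upper-quartile scaling, limma-voom, a minimum of 10 counts, and without Ncr1+/+ replicate 2. Neither gene met the fold thresholds under any of the 19 alternative fits.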

How the data were processed

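The deposited file is 1 table of read counts per gene, not normalized, for 10 RNA-seq libraries, with each gene's coordinates and summed exon length. Per the labels, a SMART-Seq v4 kit turned 2 ng of RNA per library into cDNA, which was read from one end for 51 cycles. According to the methods of the study, the authors trimmed reads with Trimmomatic and FASTP, mapped them to mm10 with STAR and counted them with HTSeq at default settings. The coordinates in the table are not those of mm10, and the table names no build. The kit does not mark strand, so reads of a gene and of an antisense partner cannot be told apart. Columns of per-sample values that went unused numbered 0.

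The edgeR package (4.0.16, with limma 3.58.1 and R 4.3.3) was used to drop low genes (filterByExpr), to scale libraries (TMM) and to test genotype over all 10 libraries by quasi-likelihood, with Benjamini-Hochberg adjustment over all tested genes. The steps were tested on simulated data first. Standard errors were taken from the F statistic. DESeq2 1.42.0, other scalings and filters, limma-voom and fits without single libraries served as alternatives. No pair of the 20 same-genotype pairs of libraries agreed within sampling noise (chi-square per gene 9.25 to 24.1). Intervals of fold changes rest on the spread between libraries, and limits on counts cover counting error only.

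The members and lists were chosen with earlier results of these data known. Named in full were genes past a threshold or without overlap, the 3 lowest and the 3 highest log2 fold changes, the leading isozyme of each step, and genes failing the filter.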

Additional observations from a re-analysis of the deposited data

Results flagged for a closer look

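A library was taken as standing apart when its gap to the nearest library of the same genotype, divided by the range of the 5 libraries, exceeded Dixon's 95% limit. Of 106 groups examined 5 did so, as compared to 5.3 expected by chance at 1 in 20. *Pfkl* was at 57.9 CPM in Ncr1gfp/gfp replicate 2, with the nearest library at 44.7 CPM. *Pgm2* of the table was at 38.4 CPM in Ncr1gfp/gfp replicate 4, with the nearest at 32.1 CPM. Hepatocyte markers summed to 182 CPM in Ncr1+/+ replicate 1 and to 216 CPM in Ncr1gfp/gfp replicate 3, with the nearest library at 147 CPM in both cases. Erythroid markers summed to 9.14 CPM in Ncr1+/+ replicate 5, with the nearest at 1.85 CPM.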

How the results depend on the processing

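The count of enzyme genes called, and that of enzyme genes with an adjusted p under 0.05, rose from 0 to 1 with DESeq2, with edgeR's likelihood ratio test and without a filter, and ranged from 0 to 1 when each library was left out, the 1 gene being *Hk3* in each case. A threshold of an absolute log2 fold change above 1 and glmTreat against a fold change of 1.5 called 0. Over all genes, the likelihood ratio test called 138, the fit without a filter 131 and the fits without single libraries 60 to 98, as compared to 84. The number of enzyme genes without overlap ranged from 0 to 2 when each library was left out, namely *Hk2* and *Cs* without Ncr1gfp/gfp replicate 5, *Hk3* without Ncr1+/+ replicate 2 and *Pgm1* without Ncr1+/+ replicate 4, and it was *Gapdh* alone when the library of each genotype with the highest hepatocyte markers was left out. The share over all tested genes was not computed for these fits. Any gene separates more easily with fewer libraries, so the 3.11% found with all 10 libraries is no background for these counts. Among the further pathway genes, the count with an adjusted p under 0.05 was 2 with DESeq2, 1 with RLE or upper-quartile scaling, the likelihood ratio test, limma-voom, no filter or a minimum of 10 counts, and 0 to 1 when each library was left out. Of 815 refitted log2 fold changes of single enzyme genes 48 changed sign, all in 16 genes whose value was at most 0.12 in size, and 0 moved by more than 1 standard error. The glycolytic count moved by less than 1.5 times in the 19 alternative fits, with 28 to 34 enzyme genes negative, and so did the interval count in the quasi-likelihood fits, in which alone it was computed. The fit without the hepatocyte-marker libraries, the refits of the glycolytic, interval and further-gene counts and the means without single genes were chosen after seeing the data.

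The replicate numbers did not pair the libraries (correlations of same-numbered deviations -0.03 to 0.05, with 1 of 5 libraries correlating best with its own number). With the replicate number as a block, 0 enzyme genes were called, the median log2 fold change was -0.06, 34 intervals lay inside the thresholds and 87 of all genes were called. Of the 13 genes at 20 CPM or less, 10 had intervals that crossed a fold threshold, and the parts of depth and of the spread between libraries in this were not told apart.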
